A study of Mus musculus with 18 samples.

Results

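The 10 genes described here take up cystine and make, recycle or break down glutathione, together with the main regulator of that system and some of its targets. They are Slc7a11, Slc3a2, Gclc, Gclm, Gss, Gsr, Chac1, Nfe2l2, Txnrd1 and Nqo1. They were chosen by gene symbol, whatever their level, and are 10 of the 36451 genes of the deposited table. All 10 had enough counts to be tested. Colon RNA of mice was sequenced in 18 libraries, 6 in each of 3 groups, in a study of whether the gut bacterium Akkermansia muciniphila acts on colitis by way of ferroptosis, the death of cells through iron-driven oxidation of their lipids. AKK mice were gavaged weekly with 0.1 mL of the bacterium over 6 weeks. Model mice had 3% DSS (dextran sulfate sodium, a chemical that damages the gut lining) in their drinking water for 1 week and PBS by gavage at the same volume. Control mice were male C57BL/6J animals of 6 weeks with no stated treatment. The labels state DSS for Model mice only, and do not say whether AKK mice also drank it. They give no age for AKK or Model mice, so age and treatment cannot be told apart. The design text also names erastin, an inhibitor of the cystine transporter, but no group analysed here carries it.

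Cystine enters cells through a transporter made of Slc7a11, which carries the amino acid, and Slc3a2, the partner that holds it in the membrane. Inside the cell cystine is reduced to cysteine, which limits the synthesis of glutathione, the tripeptide that glutathione peroxidases use to remove lipid peroxides. Blocking the transporter starves cells of cysteine and is a standard way to trigger ferroptosis. The transcription factor NRF2, encoded by Nfe2l2, raises most of these genes under oxidative stress, and ATF4 raises Slc7a11, Slc3a2 and Chac1 when amino acids run short.

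Promoter sequence was looked up because these 2 factors are the known regulators of the genes. RefSeq sequence of the mouse build GRCm38.p6, the sequence of mm10, was held for 8 of the 10 genes. The 250 bases before each transcription start listed there were searched on both strands for the ATF4 element TGATGNAA and for the NRF2 element TGANNNNGC. The ATF4 element occurs in 3.45% of 32851 such windows and the NRF2 element in 35.2%. Slc7a11 holds 2 ATF4 matches, which face each other, and Chac1 holds 1. The other 6 genes with sequence hold 0, although the one window held for Slc3a2 (chr19:8713848-8714147, minus strand) lies inside the gene's span in the deposited table and does not cover the start of that span. The capitals below mark the ATF4 matches, with 20 bases on either side, at chr3:50443633-50443699 (minus strand) for Slc7a11 and chr2:119351029-119351076 (plus strand) for Chac1.
Slc7a11: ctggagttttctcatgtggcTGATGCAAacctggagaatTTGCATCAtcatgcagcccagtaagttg
Chac1: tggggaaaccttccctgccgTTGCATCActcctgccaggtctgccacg
The NRF2 element occurs in 4 of the 8 genes, namely Slc7a11, Gclm, Nfe2l2 and Txnrd1, and one of the Slc7a11 matches overlaps an ATF4 match. The capitals below mark it at chr3:122245403-122245451 (plus strand) for Gclm and chr10:82859094-82859142 (plus strand) for one of the Txnrd1 starts.
Gclm: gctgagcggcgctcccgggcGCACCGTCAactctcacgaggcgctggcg
Txnrd1: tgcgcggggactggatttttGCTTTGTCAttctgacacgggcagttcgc
A match is a run of letters and does not show that a factor binds there.

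Total counts per library ranged from 60665457 to 82589848 in AKK, 58841661 to 79147073 in Model and 53873744 to 65705141 in Control. Levels are FPKM, fragments scaled to transcript length and library size, given as mean ± SD with n = 6 unless stated. A gene was called when its edgeR quasi-likelihood p, adjusted by Benjamini-Hochberg over 20492 tested genes, was under 0.05. One library, Model_1337, stood apart. The summed FPKM of 9 squamous epithelium markers was 5894 there, against a median of 1.35 in the other 5 Model libraries, and that of 11 colonocyte markers was 1025, against 6805. Its 6 neutrophil markers summed to 882, against 43.1. Ivl was at 0 in all AKK and all Control libraries, and Krt6a also in all AKK libraries. No colonocyte, neutrophil or macrophage marker was at 0 throughout a group. Results that rest on Model_1337 are given with and without it.

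Slc7a11 was the one gene of the 10 that was called, and it rose in Model against Control. In that comparison 1 of 10 genes was called higher and 0 lower, against 17.1% of all tested genes called in either direction and 10.4% called higher. The median log2 change of the 10 was -0.06, beside 0.02 over all tested genes. At an unadjusted p of 0.05, 4 of the 10 passed, namely Slc7a11, Gss, Slc3a2 and Txnrd1, against 33.6% of all tested genes, and the adjusted p of the 9 uncalled genes ranged between 0.0787 and 0.979. In AKK against Model 0 of 10 were called, against 0.00976% of all tested genes, and 0 of the 10 passed an unadjusted p of 0.05, against 8.28%. In AKK against Control 0 of 10 were called, against 3.87% of all tested genes. The median of the 10 was -0.07 in AKK against Model, beside -0.04 over all genes, and -0.20 in AKK against Control, beside -0.01. None of the 10 had groups without overlap in any comparison, whereas 2.45% of tested genes did in Model against Control, 0.595% in AKK against Model and 7.16% in AKK against Control. The comparisons share libraries pairwise and are not independent.

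**Figure D1:**
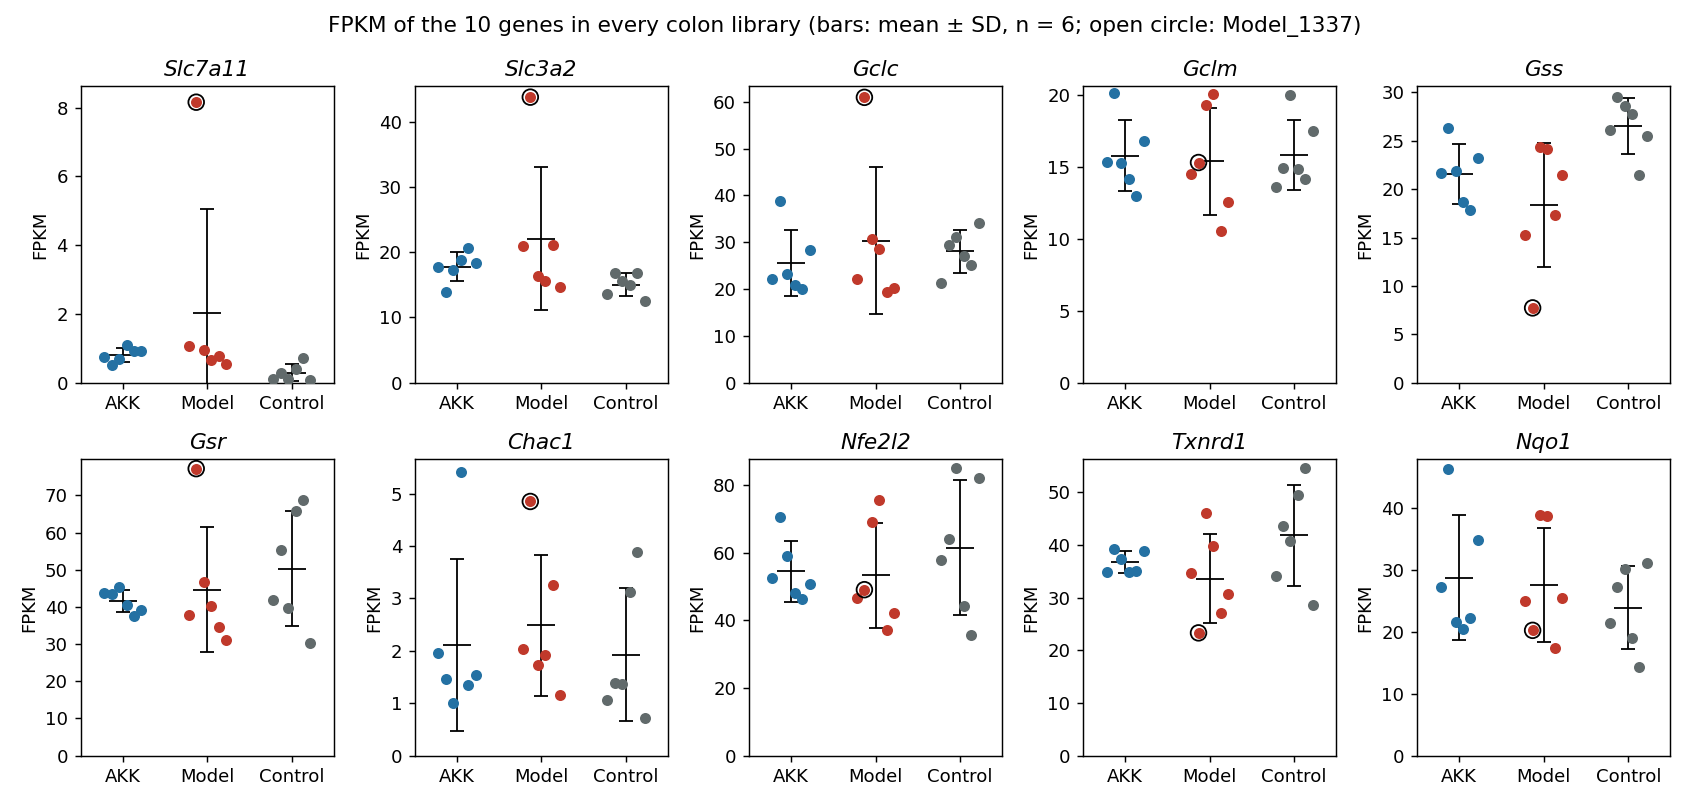
FPKM of each gene in every library of the AKK, Model and Control groups, on linear axes from 0, with mean and SD bars (n = 6) and an open circle on Model_1337. That library has the highest Slc7a11 value of the 18, 8.16, and the lowest Gss value, 7.73.

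**Figure D2:**
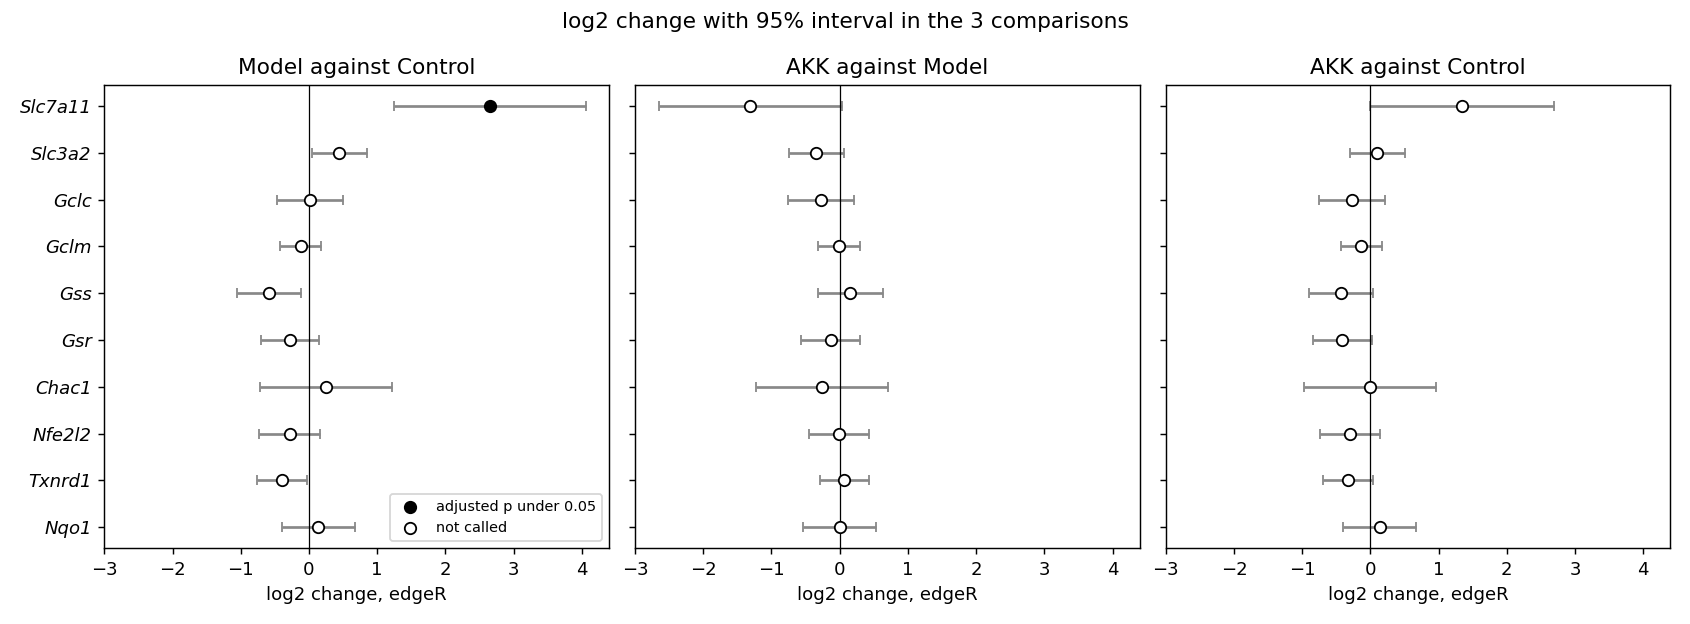
log2 change with its 95% interval for each gene in Model against Control, AKK against Model and AKK against Control, from edgeR. The one filled point is Slc7a11 in Model against Control, at 2.66 with an interval from 1.25 to 4.06.

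Slc7a11, the cystine carrier (mm10 chr3:49892526-50443614, minus strand), had the lowest level of the 10 genes and the widest range. Its FPKM had a lowest, median and highest value of 0.500, 0.824 and 1.09 in AKK, 0.558, 0.871 and 8.16 in Model, and 0.0913, 0.209 and 0.722 in Control. Control_2289 was the highest Control library and reached the AKK and Model values, whereas 4 of 6 libraries of AKK and 4 of 6 of Model lay above every Control library. The means were 0.807 ± 0.208 in AKK, 2.03 ± 3.01 in Model and 0.288 ± 0.244 in Control. The counts behind them were 490 to 1379 in AKK, 667 to 7414 in Model and 78 to 606 in Control.

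In Model against Control Slc7a11 rose by 2.66 ± 0.67 (log2 ± SE), or 6.30-fold, at an adjusted p of 0.0157 in edgeR. The rise was called in all 18 fits that left out 1 library, with log2 changes between 1.41 and 3.11. The smallest came without Model_1337, where it was 1.41 ± 0.43, or 2.66-fold, at an adjusted p of 0.0408. Without that library the Model mean was 0.808 ± 0.211 (n = 5). The call was lost when limma was run on log2(FPKM + 1), with an adjusted p of 0.0817, and when only the Model and Control libraries were fitted, with 0.0699. DESeq2 gave no p for Slc7a11, at a change of 2.63 ± 0.59. A filter of FPKM of at least 1 in 6 libraries left it untested. In colon tissue a change in the cells present and a change in RNA per cell cannot be told apart. Neutrophil markers summed to 19.8 to 191 FPKM in AKK, 16.3 to 882 in Model and 3.09 to 107 in Control. In Model against Control 0 of 6 were called, but their median log2 change was 2.67, with a lowest adjusted p of 0.0508 in edgeR. Without Model_1337 that median was 0.999, again with 0 of 6 called. Macrophage markers were called higher in 4 of 9, with sums of 451 to 703 in AKK, 123 to 1248 in Model and 161 to 507 in Control. Without Model_1337 the macrophage count was 1 of 9, while plasma cell markers were called higher in 5 of 7, with a median log2 change of 2.09, fibroblast markers in 5 of 6 and endothelium markers in 3 of 4. The part of these cells in the Slc7a11 result was not tested.

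For Slc7a11 no difference between AKK and Model passed the threshold. The change in AKK against Model was -1.31 ± 0.64 (adjusted p 0.612), with a 95% interval from -2.65 to 0.03. Without Model_1337 it was -0.06 ± 0.42. In AKK against Control Slc7a11 had a change of 1.35 ± 0.64, which was not called (adjusted p 0.225). All 6 AKK libraries lay above the Control median. Without Model_1337, which enters that fit through the shared estimate of spread, the same change of 1.35 had an SE of 0.41 and was called (adjusted p 0.0471). Slc7a11 was not called when only the AKK and Control libraries were fitted, which also leaves out Model_1337.

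Slc3a2, the transporter's membrane partner (chr19:8706882-8723369, minus strand), also pairs with several other amino acid carriers, and was far more abundant. Its lowest, median and highest FPKM were 14.0, 18.01 and 20.6 in AKK, 14.7, 18.7 and 43.8 in Model, and 12.6, 15.2 and 16.9 in Control. The groups overlapped, although 5 of 6 AKK libraries and 3 of 6 Model libraries were above every Control library. The log2 change in Model against Control was 0.44 ± 0.19 (adjusted p 0.115) and 0.17 ± 0.11 without Model_1337. It was -0.34 ± 0.19 in AKK against Model and 0.10 ± 0.19 in AKK against Control, neither of them called. Without Model_1337 the change in AKK against Model was -0.07 ± 0.11. The FPKM ratio of Slc7a11 to Slc3a2 was 0.0449 ± 0.00799 in AKK, 0.0689 ± 0.0581 in Model and 0.0182 ± 0.0141 in Control. It was therefore lowest on average in Control, where Control_2289 had 0.0428 and overlapped both other groups. Among the 5 other light chains that pair with Slc3a2, 0 were called in any comparison. The 2 with the smallest p in Model against Control were Slc7a6, with a change of 0.27, and Slc7a7, with -0.33.

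A second cystine carrier, Slc7a9, takes up cystine at the gut and kidney cell surface with Slc3a1 as its partner. Slc7a9 fell in Model against Control by 1.79 ± 0.49 on the log2 scale (adjusted p 0.0220). Its FPKM was 1.48 to 3.59 in AKK, 0.250 to 4.08 in Model and 3.53 to 13.6 in Control, so that the groups touched at their edges. Control_2286 had the highest value, and without it the adjusted p was 0.0611. The summed FPKM of 5 small intestinal enterocyte markers was also highest in that library, at 223 against 11.4 in the lowest Control library. Fabp6 alone gave 187 of it. Sis and Apoa4 were also highest there, but Lct and Alpi were not. The part of these markers in the result was not tested. Without Model_1337 the fall was 1.55. In AKK against Control the change was -1.74 ± 0.49 and just missed the threshold (adjusted p 0.0534). Slc3a1, which was named after its values were seen, had 0.137 FPKM in Model_1337 and 4.56 to 25.2 in the other Model libraries, and was not called (adjusted p 0.385).

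**Figure D3:**
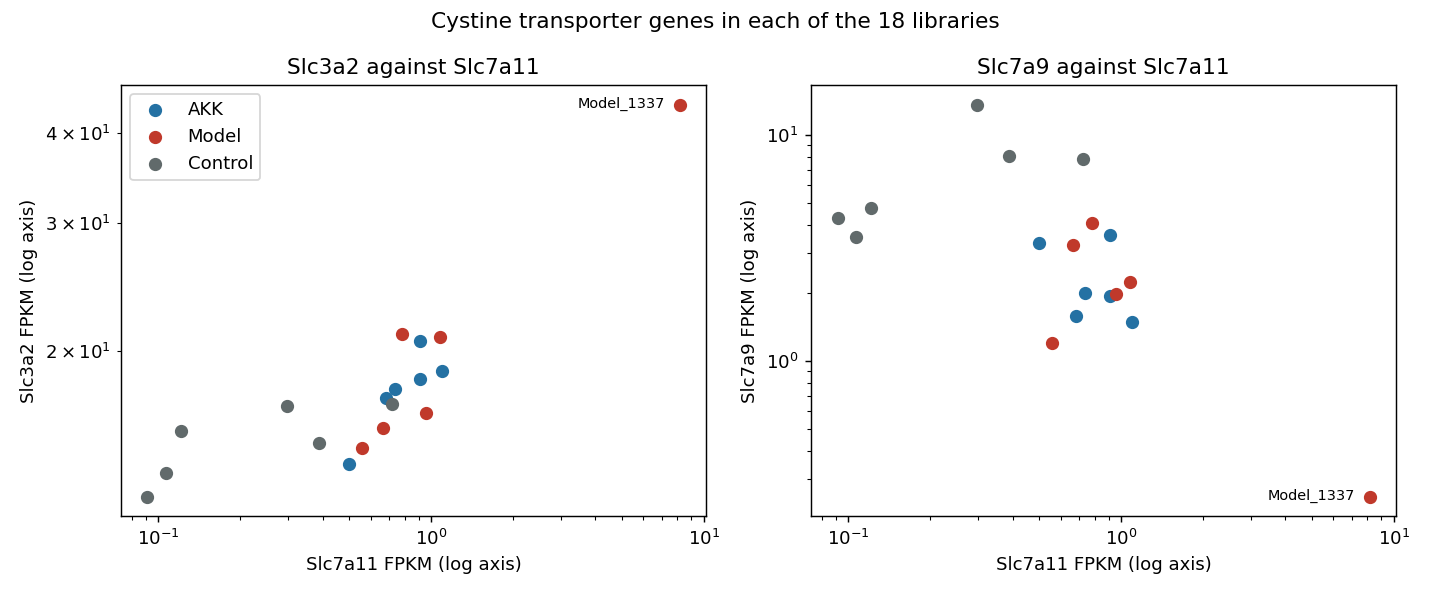
FPKM of Slc3a2 (left) and Slc7a9 (right) against that of Slc7a11 in each of the 18 libraries, on log axes. Model_1337 lies at 8.16 FPKM of Slc7a11 with 43.8 of Slc3a2 and 0.250 of Slc7a9, and the Control libraries lie at or below 0.722 FPKM of Slc7a11.

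None of the 3 genes of glutathione synthesis was called in any comparison, and Gss came nearest in Model against Control. Gclc is the catalytic subunit of glutamate cysteine ligase, the rate-limiting step (chr9:77754535-77794485, plus strand), and Gclm is its modifier subunit (chr3:122245557-122270732, plus strand). Gclc had a lowest, median and highest FPKM of 20.1, 22.6 and 38.7 in AKK, 19.3, 25.3 and 60.9 in Model, and 21.3, 28.2 and 34.1 in Control. The groups overlapped throughout, and Model_1337 held the highest value. Gclc changed by 0.01 ± 0.23 in Model against Control, with a 95% interval from -0.47 to 0.49. Without Model_1337 the estimate was -0.27 ± 0.17 (adjusted p 0.321). Gclm was the least variable of the 10 genes over all libraries, with a highest value 1.91 times the lowest. Its means were 15.8 ± 2.48 FPKM in AKK, 15.4 ± 3.73 in Model and 15.8 ± 2.44 in Control, and its change of -0.12 ± 0.14 in Model against Control was not called. The ratio of Gclm to Gclc lay between 0.509 and 0.703 in 17 libraries and was 0.251 in Model_1337.

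Gss, glutathione synthetase, joins glycine in the last step (chr2:155563181-155592810, minus strand). Its lowest, median and highest FPKM were 17.9, 21.7 and 26.3 in AKK, 7.73, 19.4 and 24.4 in Model, and 21.5, 27.0 and 29.5 in Control. All 6 AKK and all 6 Model libraries lay below the Control median, and 4 of 6 Model libraries below every Control library. The change was -0.59 ± 0.22 in Model against Control (adjusted p 0.0787) and -0.43 ± 0.22 in AKK against Control (adjusted p 0.267), so neither passed the threshold. It was 0.16 ± 0.22 in AKK against Model. Without Model_1337 the Gss change was -0.42 ± 0.15 in Model against Control (adjusted p 0.0750 in edgeR) and -0.01 ± 0.15 in AKK against Model. Gss was called lower in Model against Control without Model_1341 (-0.71, adjusted p 0.0434), a library with 16.99% of its counts from mitochondrial genes, against 3.93% to 8.59% in the others. It was called lower in AKK against Control when only these groups were fitted (adjusted p 0.0256). Part of Gss overlaps Acss2, a gene on the opposite strand with a mean level of 7.91 FPKM. Since no source used here gives the strand setting of the counting, reads in the shared stretch cannot be told apart. Gclm and Txnrd1 also overlap other genes, with mean levels of 1.63 and 1.43 FPKM.

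Gsr and Txnrd1 return oxidised glutathione and oxidised thioredoxin to their reduced forms with NADPH. Gsr lies at chr8:33652523-33698163 and Txnrd1 at chr10:82833951-82897712, both on the plus strand. Gsr had a lowest, median and highest FPKM of 37.7, 41.9 and 45.5 in AKK, 31.2, 39.0 and 77.2 in Model, and 30.2, 48.6 and 68.8 in Control. All 6 AKK libraries lay below the Control median, yet inside the Control range. Txnrd1 had 34.7, 36.1 and 39.3 in AKK, 23.3, 32.6 and 46.1 in Model, and 28.6, 42.2 and 54.6 in Control. Here too all 6 AKK libraries lay below the Control median, and so did 5 of 6 Model libraries. Both genes were tightly grouped in AKK, with a coefficient of variation of 7.27% for Gsr and 5.67% for Txnrd1, beside 30.7% and 23.0% in Control. The Gsr change was -0.28 ± 0.21 in Model against Control (adjusted p 0.361) and -0.41 ± 0.21 in AKK against Control (adjusted p 0.247). Without Model_1337 the former was -0.47 ± 0.18 (adjusted p 0.0935 in edgeR). The Txnrd1 change was -0.39 ± 0.17 in Model against Control (adjusted p 0.119) and -0.32 ± 0.17 in AKK against Control (adjusted p 0.275). Txnrd1 was called lower in Model against Control without Model_1338 (-0.51, adjusted p 0.0446) or without Control_2668 (-0.49, adjusted p 0.0441). In AKK against Model the changes were -0.13 ± 0.20 for Gsr and 0.07 ± 0.17 for Txnrd1. Without Model_1337 they were 0.06 ± 0.18 and -0.03 ± 0.16.

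Chac1, an ATF4 target that cleaves glutathione and is a common marker of ferroptosis induced by cystine shortage (chr2:119351229-119354381, plus strand), was expressed at low and uneven levels. Its lowest, median and highest FPKM were 1.01, 1.49 and 5.41 in AKK, 1.16, 1.98 and 4.85 in Model, and 0.724, 1.38 and 3.88 in Control. Each group held 1 or 2 high libraries, AKK_1306 in AKK, Model_1337 and Model_1340 in Model, and Control_2288 and Control_2289 in Control, and the remaining libraries overlapped. AKK_1306 also had the highest neutrophil and macrophage marker sums of its group, 191 and 703 FPKM, and their part in the value was not tested. The change was 0.26 ± 0.46 in Model against Control, -0.26 ± 0.46 in AKK against Model and -0.01 ± 0.46 in AKK against Control. The last of these intervals ran from -0.97 to 0.96. Without Model_1337 the Chac1 change was -0.01 ± 0.46 in Model against Control and 0.0001 ± 0.46 in AKK against Model.

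Nfe2l2, the gene of NRF2 (chr2:75675513-75704641, minus strand), was the most abundant of the 10, and its protein is controlled mainly by degradation rather than by its RNA level. It averaged 54.5 ± 9.03 FPKM in AKK, 53.3 ± 15.4 in Model and 61.5 ± 19.8 in Control. Its changes of -0.29 ± 0.21 in Model against Control, -0.01 ± 0.21 in AKK against Model and -0.30 ± 0.21 in AKK against Control were not called. Nqo1, a quinone reductase and a classic NRF2 target (chr8:107388225-107403206, minus strand), averaged 28.8 ± 10.1 FPKM in AKK, 27.6 ± 9.20 in Model and 23.9 ± 6.72 in Control. Its range was 20.4 to 46.3 in AKK, 17.3 to 38.9 in Model and 14.3 to 31.2 in Control, so the groups overlapped. Its largest change was 0.14 ± 0.25, found alike in Model against Control and in AKK against Control. Keap1, which marks NRF2 for degradation, was called lower in Model against Control, by 0.31 ± 0.08 on the log2 scale (adjusted p 0.0168). It had 10.9 ± 0.806 FPKM in Model and 12.8 ± 1.40 in Control, and was the 1 of 8 NRF2 regulators called. That call was lost when libraries were scaled by total counts (-0.23, adjusted p 0.0638).

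Model_1337 carried much of the spread within the Model group, and not in one direction. Relative to the median of the other 5 Model libraries it had 10.5 times the Slc7a11, 2.76 times the Gclc, 2.67 times the Slc3a2, 2.54 times the Chac1 and 2.04 times the Gsr. Gclm and Nfe2l2 were at 1.06 and 1.05 times, Nqo1 at 0.795, Txnrd1 at 0.672 and Gss at 0.360. Without it 1 gene of the 10 was called higher in Model against Control, 0 in AKK against Model and 1 higher in AKK against Control, Slc7a11 in both cases. Of all tested genes, 6.18% were then called higher in Model against Control, 0.00976% in AKK against Model and 5.32% in AKK against Control.

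**Figure D4:**
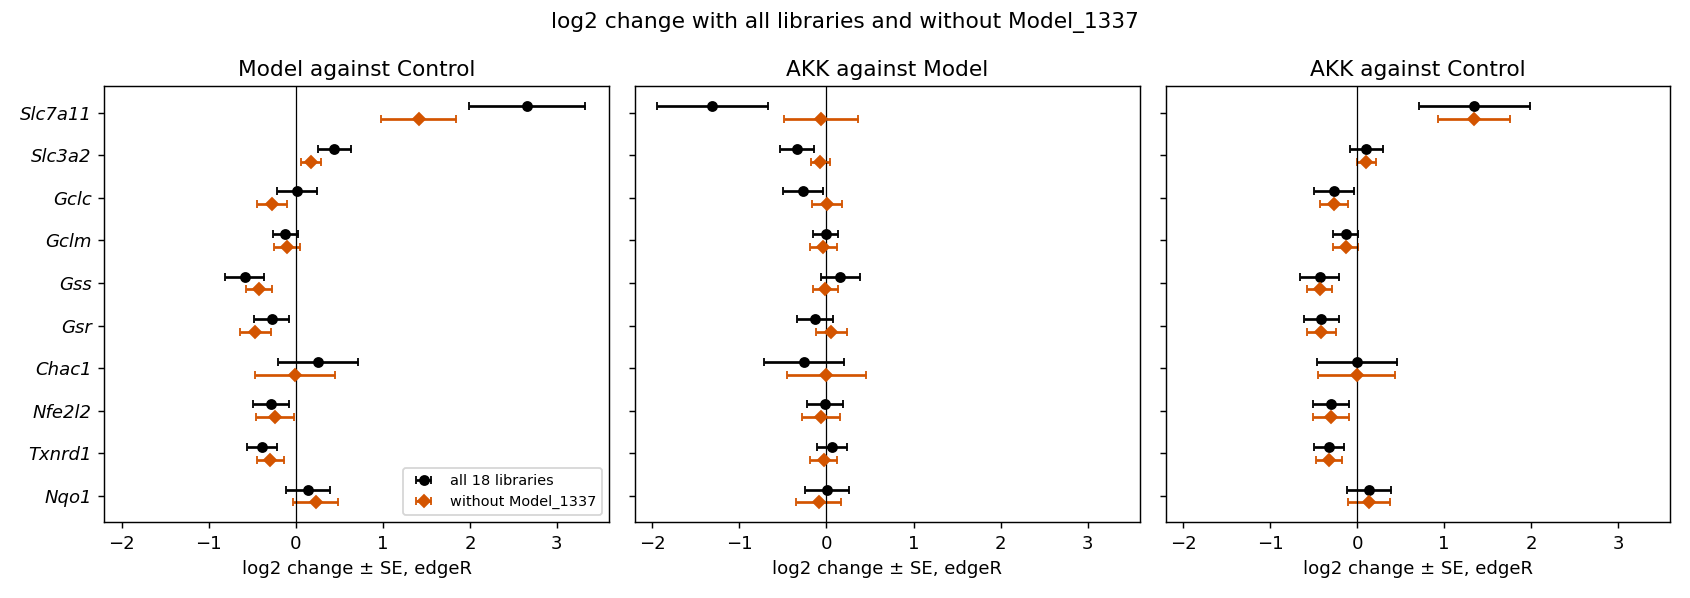
log2 change ± SE of each gene in the 3 comparisons, from edgeR, with all 18 libraries (circles) and without Model_1337 (diamonds). Slc7a11 moves most, with 1.41 in place of 2.66 in Model against Control and -0.06 in place of -1.31 in AKK against Model.

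Within groups the 10 genes did not vary as one unit. Pearson's r of log2(FPKM + 0.1), after each group's mean was subtracted, was computed for all 45 pairs over the 18 libraries as a description. The values share the libraries' cell makeup and depth. Slc7a11 and Slc3a2 gave r = 0.89 (Spearman's rho 0.80), which was 0.73 without the 2 libraries farthest from the median of Slc7a11 and 0.65 without Model_1337. Slc7a11 and Gsr gave 0.86 (rho 0.76), with 0.69 and 0.76 after the same removals, but r was -0.68 within the 6 AKK libraries. Slc7a11 and Chac1 gave 0.71 (rho 0.76), with 0.63 and 0.74. A second set held Nfe2l2, Nqo1, Gclm and, outside Model_1337, Gclc and Gss. Gss and Nqo1 gave 0.61 (rho 0.74) and 0.77 without Model_1337. Nfe2l2 and Nqo1 gave 0.85 (rho 0.77) and 0.87 without Model_1337, and Gclc and Gclm gave 0.61 (rho 0.80) and 0.88 without it. Slc7a11 and Nfe2l2 gave r = -0.43, and -0.65 without Model_1337, with -0.94 within AKK and -0.88 within Control but -0.06 within Model. Among the Control libraries single values showed part of this split. Control_2288 and Control_2289 were the 2 highest of that group in Slc7a11, Chac1 and Gsr, and also in Txnrd1, which was in neither set. They were the 2 lowest in Nqo1 and Nfe2l2. The other genes of the sets did not share this order, since Control_2288 was not among the 2 highest in Slc3a2 or the 2 lowest in Gclc, Gclm or Gss.

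**Figure D5:**
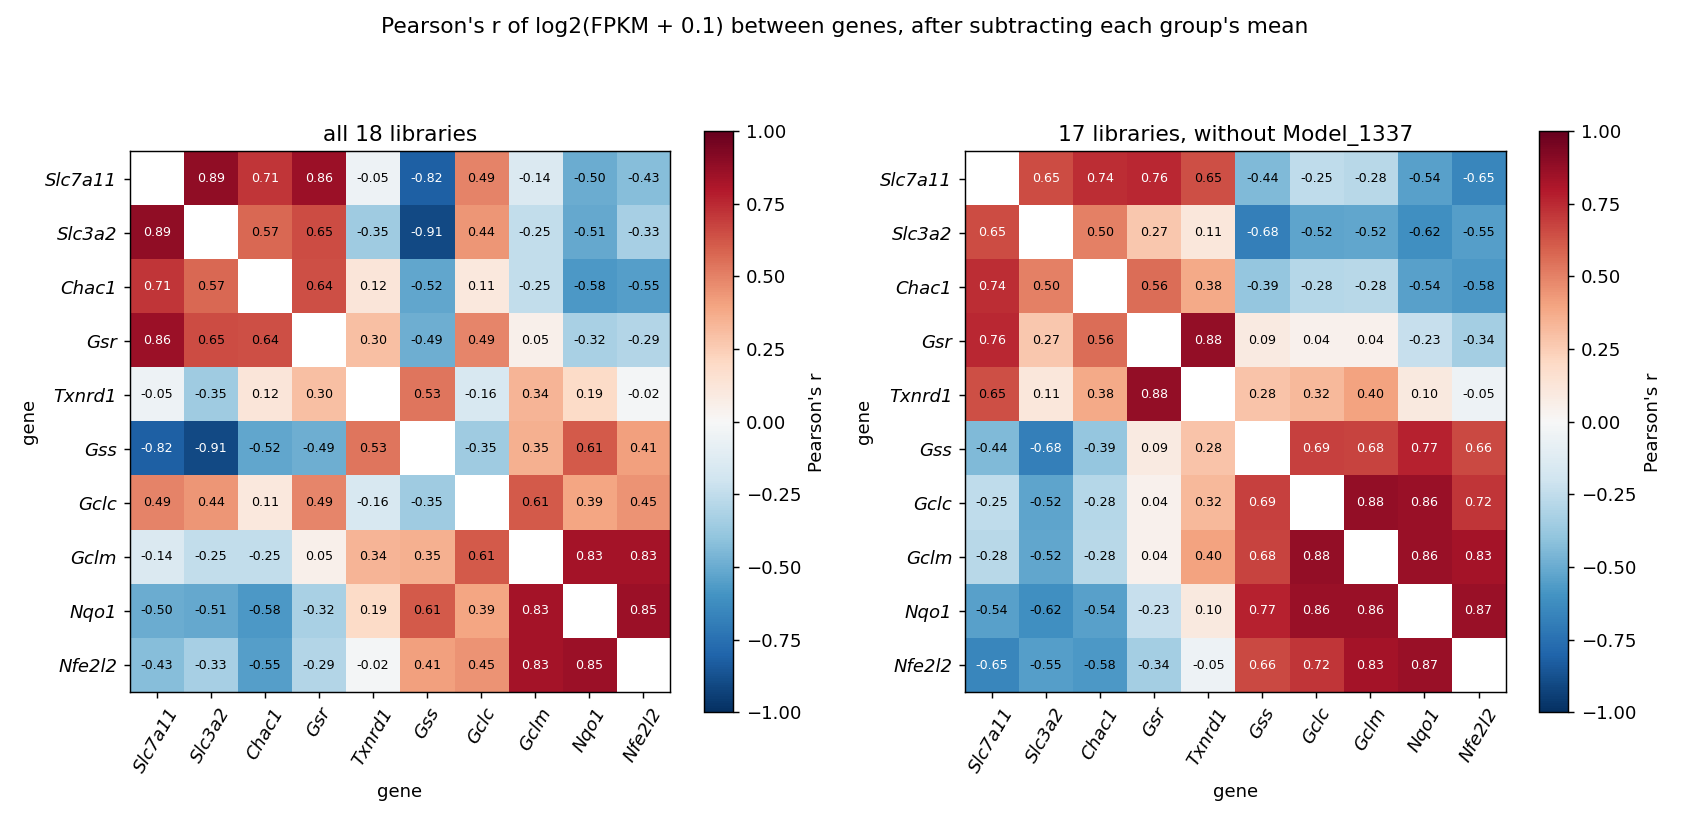
Pearson's r between each pair of the 10 genes over 18 libraries (left) and over 17 libraries without Model_1337 (right), colour scale from -1 to 1. Gss and Gclc have -0.35 with that library and 0.69 without it, and Gsr and Txnrd1 have 0.30 with it and 0.88 without it.

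The 2 genes whose pattern within groups was most like each member's are named here. They were picked for each member alone, so a difference in names does not separate the 2 sets. For Slc7a11 they were Tnfrsf1a (r = 0.97, and 0.94 without Model_1337) and Il4ra (0.96, and 0.96 without it), receptors for tumour necrosis factor and for interleukin 4. For Chac1 they were Clec4e (0.89) and Acod1 (0.88), both genes of activated myeloid cells. For Nfe2l2 they were Cat, the peroxisomal catalase (0.96), and Hsd17b4, a peroxisomal fatty acid enzyme (0.96). For Nqo1 they were Ces1g (0.95) and Cbr3 (0.93). Gss went with Akr1c13 and Slc25a10, Gsr with Ptma and Cct6a, Txnrd1 with Nus1 and Iqgap3, and Gclm with Arnt2 and Mfap3l, at r between 0.89 and 0.97. Slc3a2 was most like Nlrp12 and Ephx3, and Gclc most like Fzd10 and Efna3, all genes with means under 2 FPKM in every group, and r for these 4 was 0.75 to 0.89 without Model_1337. These values describe 18 libraries and carry no test.

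In 8 lists of genes around these pathways, several calls in Model against Control depended on Model_1337 and on the scaling. The lists share genes, among them Pgd, Prdx1 and Srxn1, so the call of a shared gene counts in more than 1 list. The background was 10.4% of tested genes higher and 6.72% lower. Without Model_1337 the background was 6.18% higher and 6.15% lower. Scaled by total counts it was 2381 genes higher and 707 lower, of 20492 tested. In NADPH supply 0 of 8 genes were higher and 5 of 8 lower, with a median log2 change of -0.40, against 0.02 over all genes. Mthfd1, a folate enzyme that makes NADPH, fell by 0.70 ± 0.13 (adjusted p 0.00407), to 6.99 ± 1.52 FPKM in Model against 10.7 ± 1.72 in Control. Pgd, of the pentose phosphate pathway, fell by 0.52 ± 0.16 (adjusted p 0.0320), a call that was lost in 6 of the 18 fits that left out 1 library, among them the fit without Model_1337 (-0.43, adjusted p 0.0587). Idh2, Nadk and Nadk2, named after their values were seen, were the other 3. Without Model_1337 the count was 2 of 8 lower, Mthfd1 and Nadk2, and it was also 2 of 8, Mthfd1 and Pgd, when libraries were scaled by total counts in place of TMM. The summed FPKM of the 11 colonocyte markers had a median of 5799 in Model and 11591 in Control, and their median log2 change was -0.68 with all libraries and -0.46 without Model_1337, with 0 and 1 of them called lower. Their part in the results of these lists was not tested. In cysteine supply 0 of 17 were higher and 2 of 17 lower (3 without Model_1337), Slc7a9 and Cdo1, the enzyme that oxidises cysteine, which fell by 0.84 ± 0.25 (adjusted p 0.0288). Cdo1 lost its call without Model_1316, Model_1340 or Control_2286.

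The lists of downstream enzymes moved both ways in Model against Control. Among 26 genes of glutathione use and breakdown 2 were higher and 3 lower, but 3 were higher and 2 lower without Model_1337 and also when scaled by total counts. Mgst1, a membrane-bound glutathione transferase, fell by 0.89 ± 0.21 (adjusted p 0.0116), to 40.3 ± 10.9 FPKM in Model against 70.9 ± 17.1 in Control. Lap3, a peptidase that splits the dipeptide left by glutathione breakdown, fell by 0.84 ± 0.19 (adjusted p 0.0107). The third was Glrx, which lost its call under total counts (adjusted p 0.0520) and in 8 of the 18 fits without 1 library, and the 2 higher genes were Gpx3 and Gpx8, all named after their values were seen. Of 22 other NRF2 targets 1 was higher, Slc48a1, named likewise, and 2 were lower, Pgd and the peroxiredoxin Prdx1, which fell by 0.53 ± 0.15 (adjusted p 0.0258). The Prdx1 call was lost in 4 of the 18 fits that left out 1 library. Of 15 thioredoxin and peroxiredoxin genes 1 was higher, Nxn, by 1.01 ± 0.25 (adjusted p 0.0139) and by 0.62 without Model_1337, and 2 were lower. Among 17 ATF4 targets outside the 10 genes 1 was higher and 1 lower. Without Model_1337 the higher and lower counts were 1 and 1 for the NRF2 targets, 1 and 1 for the thioredoxin genes and 2 and 0 for the ATF4 targets. Scaled by total counts they were 1 and 2 for the NRF2 targets, 2 and 1 for the thioredoxin genes and 1 and 0 for the ATF4 targets. Ddit4, an inhibitor of mTORC1 that stress induces, rose by 0.80 ± 0.15 (adjusted p 0.00422), to 27.0 ± 7.08 FPKM in Model against 14.6 ± 1.80 in Control. Aldh18a1, of proline synthesis, fell by 0.46 ± 0.14 (adjusted p 0.0368), and lost that call when scaled by total counts and in 8 of the 18 fits that left out 1 library.

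In AKK against Model 0 genes of the 8 lists were called, against 2 of all 20492 tested genes, or 0.00976%. At an unadjusted p of 0.05 in edgeR 1696 of all tested genes passed, and DESeq2 called 19 at the adjusted threshold. The 2 largest changes, Gsta4 and Gsto1, both glutathione transferases, were -1.58 ± 0.67 and -1.56 ± 0.57 and came to 0.12 and -0.09 without Model_1337. In AKK against Control, with 2.22% of tested genes higher and 1.65% lower, the 8 lists held 3 called genes. Ddit4 rose by 0.96 ± 0.15 (adjusted p 0.00378), to 30.9 ± 4.93 FPKM in AKK against 14.6 ± 1.80 in Control. Its lowest AKK value of 23.0 FPKM and its lowest Model value of 18.5 were both above its highest Control value of 17.05. Of all tested genes, 7.16% had no overlap in AKK against Control and 2.45% in Model against Control. Gpx3, the secreted glutathione peroxidase, rose by 0.66 ± 0.16 (adjusted p 0.0319), to 83.0 ± 9.29 FPKM in AKK against 48.0 ± 9.004 in Control. Lap3 fell by 0.74 ± 0.19 (adjusted p 0.0411), a call that was lost when scaled by total counts and in 11 of the 18 fits without 1 library. The Gpx3 call was lost in 7 of them, and the Ddit4 call in 0. Without Model_1337, where 5.32% of tested genes were higher and 5.30% lower, more list genes were called in AKK against Control. The higher and lower counts were then 1 and 3 for the NRF2 targets, 0 and 1 for the NRF2 regulators, 1 and 4 for glutathione use, 0 and 2 for cysteine supply, 0 and 2 for the thioredoxin genes, 0 and 1 for NADPH supply and 1 and 0 for the ATF4 targets. Both lower thioredoxin genes, Srxn1 and Prdx1, were also among the lower NRF2 targets.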

How the data were processed

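Polyadenylated colon RNA was made into strand-marked libraries and sequenced as read pairs, per the labels' protocols. The submitters' processing notes list the build mm10 and, without roles, the tools StringTie (2.1.6), HISAT2 (2.2.1), cutadapt (1.9), edgeR and DESeq2. No source used here gives the annotation release or the strand setting. Per the file headers, the authors deposited FPKM and a count for each gene and library. The counts were whole numbers, and those of 4, 8 and 12 occurred 2.36, 1.74 and 1.36 times as often as adjacent values, so a fragment seemed to give about 4 counts and low counts stand for fewer fragments. No pair of libraries held the same values. Whether each library is a separate animal is not stated, so p-values measure the spread between these libraries, which may be technical.

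Counts were tested with edgeR 4.0.16 (quasi-likelihood, TMM scaling, 1 fit over 18 libraries with a term per group) for 20492 of 36451 genes with a mean count of at least 10. A gene was called at an adjusted p under 0.05, and intervals are 95%. limma 3.58.1 on log2(FPKM + 1) and log2(FPKM + 0.1), DESeq2 1.42.0, other scalings and filters, a 2-group fit and leaving out libraries were the alternatives, in R 4.3.3. Figures and summaries used Python 3.11.15. The 10 genes and all lists were chosen with earlier results of these data known. Besides the 10, the genes named are the 2 called genes with the largest change per list and comparison, or the 2 with the smallest p where fewer than 2 were called, of which some are given by count only, and for each member the 2 genes of highest r. Nnt has 2 gene identifiers and was left out of its list, so 8 of 9 were used. Chromosome, start and end of sequences are on the mm10 sequence.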

Additional observations from a re-analysis of the deposited data

Results flagged for a closer look

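In 5 of 30 groups of 6 libraries, 1 for each gene and group, a single library lay farther from its neighbours than chance gives in about 1 of 20 groups (Dixon's ratio of gap to range). Model_1337 was the highest Model library for Slc7a11, with 8.16 FPKM against 1.07 in the next, for Slc3a2, with 43.8 against 21.1, for Gclc, with 60.9 against 30.7, and for Gsr, with 77.2 against 46.6. Chac1 in AKK_1306 had 5.41 FPKM, against 1.97 in the next AKK library. The 4 Model values come from 1 library and are not independent.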

How the results depend on the processing

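No paired analysis was possible because the groups share no replicate numbers. Of 834 values of the 10 genes under alternatives, 774 kept direction and call, 53 changed sign, 5 gained a call and 2 lost one. Slc7a11 in Model against Control had 26 alternatives with log2 changes of 0.89 to 3.11 and adjusted p of 0.00985 to 0.0817. It had no p in DESeq2, where the change was 2.63 ± 0.59, and was not tested under a filter of FPKM of at least 1 in 6 libraries. The causes of these differences were not tested.

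The number of the 10 genes called in Model against Control was 0 in DESeq2, in limma on log2(FPKM + 1), under the FPKM filter and in the 2-group fit, and 1 to 2 when 1 library was left out. In AKK against Control it was 1 in the 2-group fit, Gss called lower, and 0 to 1 with 1 library left out. In AKK against Model it was 0 throughout. Of all genes, 3508 were called in Model against Control, 1731 and 1951 in limma with pseudocounts of 1 and 0.1, 2220 with no filter, 606 in the 2-group fit, and 1919 to 4330 without 1 library, the lowest without Control_2286. The higher and lower calls were 2130 and 1378 with TMM, 2381 and 707 when scaled by total counts, which shifted the median of all genes by 0.09 (log2), and 1266 and 1260 without Model_1337. AKK against Model had 2 calls, 19 in DESeq2, 1 in the 2-group fit, 0 without libraries of over 70000000 counts, and 1 to 5 without 1 library. AKK against Control had 794, with 2137 in DESeq2, 513 in limma with a pseudocount of 1, 378 with no filter, 2836 in the 2-group fit, 39 without the deep libraries, and 213 to 2177 without 1 library. Its higher and lower calls were 455 and 339 with TMM, 528 and 73 when scaled by total counts, with a median shift of 0.13, and 441 and 72 in limma with a pseudocount of 1.

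The sign changes were all of uncalled values, but not all were near 0. Gclc in Model against Control was -0.2693 without Model_1337, and Chac1 in AKK against Control was 0.3163 without Control_2289. Gclc in Model against Control was -0.0021 with DESeq2 size factors, -0.0021 in DESeq2 and -0.006 with no filter. In AKK against Model, under total counts, limma with pseudocounts of 1 and 0.1, no filter and without deep libraries, Gclm was 0.0309, 0.0545, 0.0591, 0.0143 and 0.1007, and Nfe2l2 was 0.0272, 0.064, 0.0656, 0.0091 and 0.1419. Nqo1 was -0.0043 there under the FPKM filter. Chac1 in AKK against Control was 0.1284 under total counts, 0.076 and 0.1301 in limma, 0.0321 under the FPKM filter and 0.0137 with no filter. With 1 library left out in turn, sign changes gave these lowest and highest values. In Model against Control Gclc had -0.2693 to 0.1082 and Chac1 -0.0063 to 0.5556. In AKK against Model Gclc had -0.4326 to 0.0055, Gclm -0.0979 to 0.0695, Gss -0.0112 to 0.274, Gsr -0.1914 to 0.0571, Chac1 -0.7777 to 0.0001, Nfe2l2 -0.103 to 0.0989, Txnrd1 -0.0332 to 0.1822 and Nqo1 -0.1869 to 0.1261. In AKK against Control Chac1 had -0.5215 to 0.3163 and Nqo1 -0.0514 to 0.2238.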
